A study of Mus musculus with 15 samples.

Results

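H3K4me3 and H3K27me3 were compared at the same gene start sites in male TT2 cells, a wild-type mouse embryonic stem cell line derived from the inner cell mass of a C57BL/6 x CBA blastocyst. Start sites were taken from the deposited table of H3K27me3 and RNA and kept where they lay inside a 1 kb window of the H3K4me3 table or within 500 bp of one. This gave 22614 of 24222 start sites, and 1608 had no such window. Both marks were mapped by native ChIP-seq, which pulls down nucleosomes that were never crosslinked, and the submitters' title describes the protocol as one for very small inputs. The comparison used H3K4me3 at 100000 and 10000 cells and H3K27me3 at 100000 and 10000 cells, 1 library each. H3K4me3 at 5000 cells, H3K27me3 at 1000 cells and ribosomal RNA-depleted total RNA of 1000 cells were also read, and no group carried a treatment or an engineered allele.

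Trimethylation of lysine 4 of histone H3 is written by the SET1 and MLL complexes around active promoters and CpG islands. Trimethylation of lysine 27 is written by Polycomb repressive complex PRC2, whose catalytic subunits are EZH1 and EZH2, and it covers the promoters of silent developmental regulators. Promoters of embryonic stem cells that carry both are known as bivalent and typically belong to genes of later lineages. Levels measured in a population of cells do not tell whether both marks sat on the same nucleosome, the same allele or the same cell.

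The H3K27me3 values of minus-strand genes were not measured at their start sites, so the results below rest on the plus strand. Among plus-strand transcripts, 340 start positions were shared by transcripts with different ends, and 0 of them carried more than 1 H3K27me3 value at 100000 cells. Among minus-strand transcripts, 329 start positions were shared in this way and 275 carried more than 1 value, whereas 0 of 735 shared transcript ends did. The values were also set against 2 kb bins, a separate count of the same library. They followed the bins at plus-strand starts (Spearman correlation 0.947 across 639 transcripts over 10 kb long) and at minus-strand ends (0.942 across 615). At minus-strand starts they did so less (0.601 across 672). The deposited value is thus that of the lowest coordinate of the gene on either strand. Of the matched start sites, 11325 were on the plus strand and belonged to 10365 genes, and 11289 were on the minus strand. Positions in this table above 67 Mb were all multiples of 8 bp, so start sites a few bases apart may have been merged.

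Promoter sequences of 4 genes are given first, each chosen because its start site stood at 1 end of the comparison. Kdm5b had among the largest differences in favour of H3K4me3, Galnt10 was among the highest in both marks, and Sp9 and Olfr466 carried H3K27me3 with little H3K4me3. Each line holds the 250 bases upstream of the gene start on the plus strand, 5′ to 3′, from RefSeq (GRCm38.p6), with CG dinucleotides in capitals. The intervals are chr1:134559928-134560177 for Kdm5b, chr11:57645192-57645441 for Galnt10, chr2:73271676-73271925 for Sp9 and chr13:65151976-65152225 for Olfr466, all in that build, while the ChIP-seq values were placed on mm9.
Kdm5b: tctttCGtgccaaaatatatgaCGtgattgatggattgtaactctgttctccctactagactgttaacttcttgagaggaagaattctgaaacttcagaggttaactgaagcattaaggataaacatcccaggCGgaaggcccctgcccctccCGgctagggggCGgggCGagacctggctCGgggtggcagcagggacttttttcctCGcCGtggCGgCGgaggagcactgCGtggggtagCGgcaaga
Galnt10: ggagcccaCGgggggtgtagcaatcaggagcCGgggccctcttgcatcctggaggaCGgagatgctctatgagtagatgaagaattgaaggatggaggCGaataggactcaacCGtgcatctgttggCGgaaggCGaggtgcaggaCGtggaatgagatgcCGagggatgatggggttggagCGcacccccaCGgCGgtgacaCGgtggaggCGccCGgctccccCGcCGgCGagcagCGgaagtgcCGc
Sp9: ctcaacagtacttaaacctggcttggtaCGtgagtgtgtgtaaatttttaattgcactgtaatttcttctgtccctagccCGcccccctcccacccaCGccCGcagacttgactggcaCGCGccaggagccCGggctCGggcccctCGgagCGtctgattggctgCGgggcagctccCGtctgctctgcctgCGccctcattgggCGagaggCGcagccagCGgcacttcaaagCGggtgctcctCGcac
Olfr466: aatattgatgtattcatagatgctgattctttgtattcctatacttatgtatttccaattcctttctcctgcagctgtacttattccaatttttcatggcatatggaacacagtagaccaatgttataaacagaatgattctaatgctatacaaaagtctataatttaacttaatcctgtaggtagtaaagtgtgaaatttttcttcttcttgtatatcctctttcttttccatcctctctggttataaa

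The Kdm5b stretch held 13 CG dinucleotides and 54.4% G+C, and that of Galnt10 held 20 and 64.4%. Sp9, with H3K27me3, held 18 and 62.4%. The Olfr466 stretch held 0 CG dinucleotides and 30.4% G+C. The CG count of Sp9 lay between those of Kdm5b and Galnt10.

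Values are RPKM, reads scaled to the length of the window and to the depth of the library, over 1 kb for H3K4me3 and over 2 kb for H3K27me3. From the smallest step between values, 1 read was worth 0.06 RPKM in H3K4me3 of 100000 cells and 0.938 RPKM in H3K4me3 of 10000 cells, which corresponds to 16.7 M and 1.07 M reads (M, mega). H3K27me3 libraries of 100000 and 10000 cells had 19.7 M and 15.3 M reads. No H3K4me3 window exceeded 49.21 RPKM at 100000 cells or 99.38 at 10000 cells, the highest values deposited, and no upper limit was applied here. These values do not tell whether higher windows were left out before. Start sites without a window made up 13% of those with RNA listed at 0 and 8.58% of those with at least 50 RPKM of RNA, against 3.38% at 1 to under 10 RPKM. The RNA carried all 12 embryonic stem cell markers at 15.01 RPKM or more, whereas 3 of 14 fibroblast markers (Fn1, Vim and Thy1), 0 of 5 endoderm, 0 of 3 mesoderm and 2 of 4 neural markers (Tubb3 and Nes) reached 1 RPKM.

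The libraries of H3K4me3 ranked the start sites alike (Spearman correlation 0.921 across 11325 sites), and so did those of H3K27me3 (0.908). Their scales differed more for H3K4me3. In the top 25% of start sites at 100000 cells, the median ratio of 10000 over 100000 cells was 5.46 for H3K4me3 and 1.07 for H3K27me3. Each cell number is 1 library, so cell number, depth and any other difference between libraries cannot be told apart in this ratio. Over the 22614 matched start sites of both strands, the 90th percentile of H3K4me3 was 7.47 RPKM at 100000 cells, 45.9 at 10000 and 21 at 5000. It thus did not follow the order of cell number.

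Most start sites had more H3K4me3 than H3K27me3 on the RPKM scale, and a small set had the opposite. Both H3K4me3 values lay above both H3K27me3 values at 6889 of the 11194 start sites with any signal (61.5%), both lay below at 1879 (16.8%), and the marks overlapped at 2426. In limma on log2(RPKM + 1), with 2 libraries a mark, H3K4me3 was higher at 4927 start sites (44.0%) and H3K27me3 at 233 (2.08%) at a Benjamini-Hochberg threshold of 0.05, with a median difference of 1.47 log2 units. The labels name no replicate cultures. The p-values therefore reflect no more than how far these libraries differ, which may be technical. No start site was called when cell number entered as a block (lowest adjusted p 0.0938) or with plain moderation (0.0808). With 1 library of a mark left out, the spread came from the other mark alone, and the calls changed strongly with the library left out. The median difference was 2.08 log2 units without H3K4me3 of 100000 cells and 0.857 without that of 10000 cells. It was 1.44 without H3K27me3 of 100000 cells and 1.49 without that of 10000 cells. The direction also rests on RPKM of different antibodies: with each library centred on its median, 3686 start sites had higher H3K4me3 and 2486 higher H3K27me3, and the median difference was -0.37. Centring lowered every difference by 1.84 log2 units.

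Libraries outside the fit gave mostly the same direction. H3K4me3 of 5000 cells exceeded H3K27me3 of 1000 cells at 4889 of the 4927 start sites called for H3K4me3 (99.2%), and it was lower at 175 of the 233 called for H3K27me3 (75.1%). It was also lower at 1245 of the 1879 start sites with both H3K4me3 values below (66.3%). Over all genes the median difference in these libraries was 1.565 log2 units, so higher H3K4me3 was common there at any start site. Over the 233 their medians were 0.00 RPKM of H3K4me3 and 0.68 RPKM of H3K27me3. All 233 had no H3K4me3 read at 10000 cells. A count of 0 there allows up to 3 reads, or 2.81 RPKM, and H3K27me3 at 10000 cells exceeded that at 12 of the 233. At 100000 cells, where 3 reads are worth 0.18 RPKM, the median over the 233 was 0.12 RPKM for H3K4me3 and 0.81 RPKM for H3K27me3. These limits cover counting error only.

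**Figure D1:**
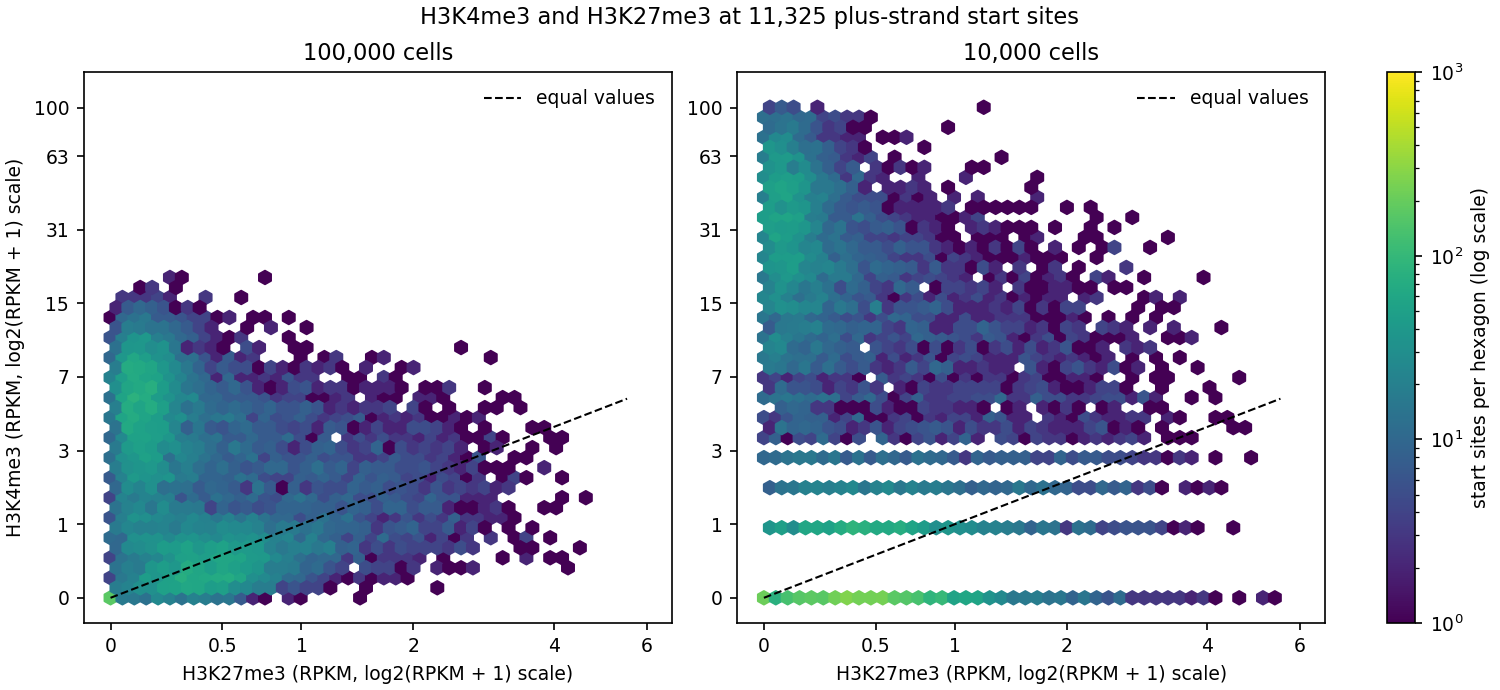
H3K4me3 (vertical axis) against H3K27me3 (horizontal axis) at plus-strand start sites, in RPKM on a log2(RPKM + 1) scale, at 100000 cells (left) and 10000 cells (right); colour gives the number of start sites per hexagon on a log scale and the dashed line marks equal values. Start sites run along both axes with few in the upper right, and single reads form horizontal rows at 10000 cells, where 1 read is worth 0.938 RPKM.

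H3K4me3 was lowest at intermediate levels of H3K27me3, not at the highest. Across all 11325 start sites the Spearman correlation of H3K4me3 with H3K27me3 was -0.276 at 100000 cells and -0.378 at 10000 cells, a description over sites that share the same libraries. With start sites in 10 equal classes by H3K27me3 at 100000 cells, median H3K4me3 was 3.25, 4.52, 3.97, 3.55, 2.17, 0.78, 0.54, 0.66, 0.90 and 1.63 RPKM in order of increasing H3K27me3. The lowest median was in class 7, and the class with the most H3K27me3 spanned 1.18 to 4.52 RPKM of that mark. At 10000 cells the medians were 21.6, 25.3, 23.4, 14.5, 5.63, 0.94, 0.94, 0.94, 1.88 and 3.75 RPKM, again lowest in the middle classes. Among the top 30% of start sites by H3K27me3 the correlation was 0.292 at 100000 cells and 0.191 at 10000 cells.

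**Figure D2:**
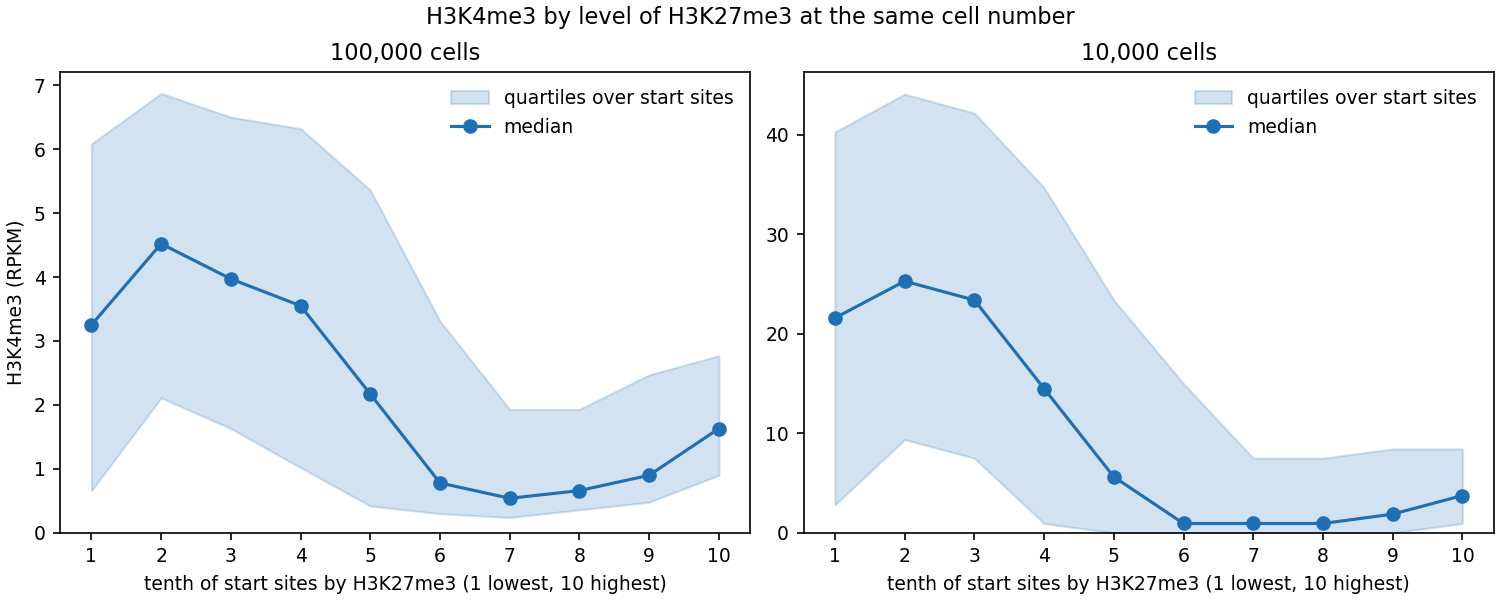
H3K4me3 (RPKM, linear axis) in 10 equal classes of start sites ranked on H3K27me3 at the same cell number, 100000 cells on the left and 10000 cells on the right; points are medians and the band spans the quartiles over about 1133 start sites. The median is lowest at 0.54 RPKM in class 7 at 100000 cells and is 1.63 RPKM in class 10.

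The marks related to RNA in opposite directions. H3K4me3 at 100000 cells correlated with RNA at a Spearman value of 0.725 and H3K27me3 at -0.443 across the 11325 start sites. Median H3K4me3 at 100000 cells was higher in each next class of RNA, at 0.30, 0.78, 1.99, 3.85 and 5.72 RPKM, the first class being the 2119 start sites with RNA listed at 0. Median H3K27me3 in the same classes was 0.44, 0.60, 0.36, 0.18 and 0.14 RPKM, so its peak lay at faint RNA (0.01 to 0.36 RPKM) and not at RNA listed at 0. Within the class without RNA both marks went together, with a correlation of 0.514 at 100000 cells and 0.208 at 10000 cells, and with faint RNA it was 0.258 and 0.155. In the 3 classes of higher RNA it lay between -0.0874 and 0.0172 at 100000 cells and between -0.232 and -0.119 at 10000 cells.

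**Figure D3:**
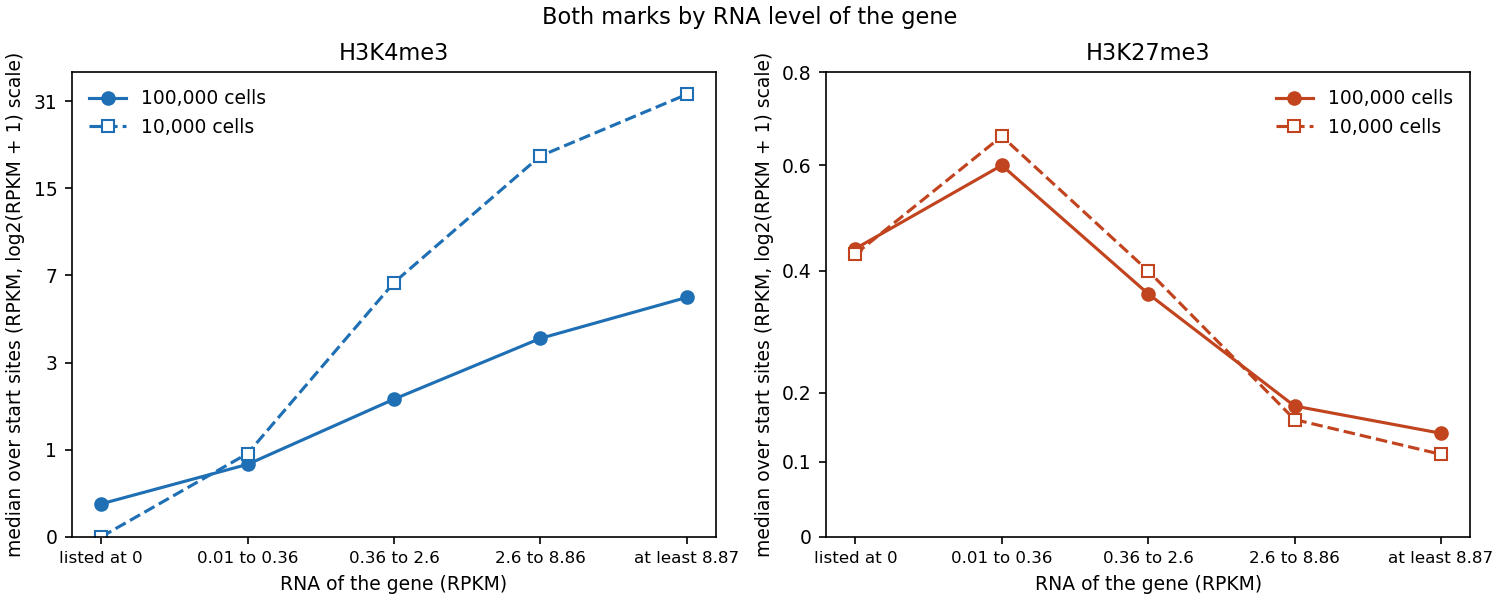
Median H3K4me3 (left, blue) and H3K27me3 (right, red) in RPKM on a log2(RPKM + 1) scale by RNA level of the gene, with filled circles for 100000 cells and open squares for 10000 cells; the axes of the panels differ. H3K4me3 climbs over all 5 classes at both cell numbers, and H3K27me3 is highest at 0.60 RPKM (100000 cells) in the class of 0.01 to 0.36 RPKM of RNA.

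Genes called for either mark differed in RNA, a readout the comparison did not use. RNA reached 1 RPKM at 89.5% of the 4927 start sites called for H3K4me3, at 3.0% of the 233 called for H3K27me3 and at 52.0% of all. Median RNA was 6.91 RPKM at the 4927 start sites called for H3K4me3, while 62.2% of the 233 had RNA listed at 0. In the 2 kb bins that held a start site, H3K9me3, a heterochromatin mark, had medians of 0.06 to 0.07 RPKM in the 3 libraries of 1000 cells at 357 start sites called for H3K4me3, and of 0.44 to 0.54 RPKM at 23 called for H3K27me3. Nucleosome density (panH3) was alike there, at 0.39 and 0.40 RPKM for the 357 and at 0.40 and 0.42 RPKM for the 23.

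The 8 largest called differences in favour of H3K4me3 were ranked over named genes with 1 start site each. Among them were those of Foxk2, a forkhead transcription factor, Kdm5b, a demethylase of H3K4me3 itself, and Ep300, a histone acetyltransferase. Kdm5b (mm9 chromosome 1, start at 136456752) had 17.53 and 88.13 RPKM of H3K4me3 at 100000 and 10000 cells, against 0.14 and 0.05 RPKM of H3K27me3, a difference of 5.21 ± 1.52 log2 units (SE, limma, adjusted p = 0.0148). Foxk2 had 17.65 and 92.81 RPKM of H3K4me3, against 0.16 and 0.08 RPKM of H3K27me3. Ep300 had 15.78 and 92.81 RPKM of H3K4me3, against 0.12 and 0.02 RPKM of H3K27me3. In each of these genes the marks were far apart in every library. Kdm5b and Foxk2 lie on chromosomes 1 and 11, and both marks were higher on chromosomes 1, 8 and 11 together, as given below. Ep300 lies on chromosome 15. The adjusted p of 0.0148 was the lowest of all start sites and was shared by Foxk2 and Ep300.

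Housekeeping genes, ribosomal protein genes and the subunits of the H3K4 methyltransferases formed the H3K4me3 end. The lists hold 1 start site per gene, and on that basis 44.6% of all 10217 genes tested were called for H3K4me3 and 2.16% for H3K27me3. Only list members with a matched plus-strand start site were measured, such as 11 of 30 housekeeping genes, 42 of 84 ribosomal protein genes and 35 of 80 developmental transcription factors. Both H3K4me3 values lay above both H3K27me3 values at 62.0% of all genes and below at 17.0%. Of 42 ribosomal protein genes, 40 were called for H3K4me3 (95.2%, against 44.6% of all genes) and 0 for H3K27me3, with a median difference of 4.34 log2 units, against 1.58 over all genes. Their median level was 7.32 and 54.8 RPKM of H3K4me3 at 100000 and 10000 cells, against 0.11 and 0.08 RPKM of H3K27me3. Rps2 had 10.48 and 88.13 RPKM of H3K4me3 and was listed at 0 in both H3K27me3 libraries, and Rpl22 had 13.01 and 77.81 RPKM of H3K4me3, against 0.06 and 0.07 of H3K27me3. Of 11 housekeeping genes 10 were called for H3K4me3 (90.9%, against 44.6% of all genes), with Atp5b, a subunit of ATP synthase, at 10.78 and 96.56 RPKM of H3K4me3, against 0.01 and 0.00 RPKM of H3K27me3. Ppia, or cyclophilin A, followed at 11.68 and 82.50 RPKM of H3K4me3, against 0.12 and 0.10 RPKM of H3K27me3. Of 21 listed subunits of the H3K4 methyltransferases 9 were measured, and all 9 were called for H3K4me3, against 44.6% of all genes. Among them were Wdr5, their shared WD-repeat subunit (7.65 and 52.50 RPKM of H3K4me3, against 0.08 and 0.04 RPKM of H3K27me3), and Men1, or menin (4.94 and 14.06 RPKM, against 0.02 and 0.00 RPKM).

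Replication-dependent histone genes were called for H3K4me3 in 32 of 37 tested (86.5%), and a list of cyclins, CDKs, their inhibitors and replication factors in 8 of 9 (88.9%), against 44.6% of all genes. The histone genes had little of either mark at 100000 cells, with medians of 0.90 RPKM of H3K4me3 and 0.07 RPKM of H3K27me3, although their median RNA was 44.5 RPKM. Hist2h2ab had 3.55 and 30.00 RPKM of H3K4me3, against 0.05 and 0.08 RPKM of H3K27me3. Histone genes are near-identical copies, and how reads were shared among them is not given in the sources used here. Mcm5, a subunit of the replicative helicase, had 11.14 and 97.50 RPKM of H3K4me3, against 0.16 and 0.20 RPKM of H3K27me3. Cdkn1a, the CDK inhibitor p21, had 4.22 and 17.81 RPKM of H3K4me3, against 0.37 and 0.44 RPKM of H3K27me3.

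Most genes of pluripotency were on the H3K4me3 side, and the share high in H3K27me3 alone was near that of all genes. Of 19 measured, 5 were in the top 25% by H3K27me3 alone at 100000 cells (26.3%, against 23.5% of all genes). A further 2 were in the top 25% of both marks (10.5%, against 2.33%). Of 18 tested, 11 were called for H3K4me3 (61.1%, against 44.6% of all genes) and 0 for H3K27me3. Both H3K4me3 values lay above at 16 of 18 (88.9%, against 62.0%), and the median difference was 2.99 log2 units, against 1.58 over all genes. Klf5, a Krüppel-like factor of the naive state, had 14.03 and 78.75 RPKM of H3K4me3, against 0.18 and 0.09 RPKM of H3K27me3. Klf2 had 12.89 and 68.44 RPKM of H3K4me3, against 0.53 and 0.79 RPKM of H3K27me3. Esrrb, an orphan nuclear receptor of the naive network, stood apart: it had 3.13 and 6.56 RPKM of H3K4me3, against 3.68 and 4.08 RPKM of H3K27me3, although its RNA was 73.8 RPKM. At Esrrb H3K4me3 was the lower mark at 100000 cells and the higher at 10000 cells, and limma gave 0.20 ± 1.42 log2 units (adjusted p = 0.924). Lefty2, an antagonist of Nodal and the other of the 2 whose marks overlapped, had 1.26 and 1.88 RPKM of H3K4me3, against 1.26 and 1.27 RPKM of H3K27me3. Fgf4, the fibroblast growth factor that stem cells secrete, was high in both, with 7.77 and 52.50 RPKM of H3K4me3, against 1.17 and 1.11 RPKM of H3K27me3.

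Of 30 listed genes of the Polycomb complexes themselves, 12 were measured on the plus strand. Of these 12, 9 were called for H3K4me3 (75%, against 44.6% of all genes) and 0 for H3K27me3. Suz12, a core subunit of PRC2, had 14.33 and 60.00 RPKM of H3K4me3, against 0.15 and 0.07 RPKM of H3K27me3, and Aebp2, an accessory subunit, had 19.33 and 86.25 RPKM, against 0.27 and 0.35 RPKM. Cbx2, a chromodomain subunit of PRC1 that binds H3K27me3, was not called: its H3K4me3 was 8.31 and 43.13 RPKM, against 1.59 and 1.70 RPKM of H3K27me3 (2.94 ± 1.55 log2 units, SE, limma, adjusted p = 0.107). Bmi1, also of PRC1, had 3.19 and 3.75 RPKM of H3K4me3, against 0.87 and 0.82 RPKM of H3K27me3. Pcgf5 was the exception, with 0.24 and 0.00 RPKM of H3K4me3, against 0.46 and 0.56 RPKM of H3K27me3.

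HOX genes, the homeobox genes that pattern the body axis, stood at the H3K27me3 end. Of 39 listed, 26 were measured on the plus strand, none of them from the Hoxa cluster. All 26 were in the top 25% of start sites by H3K27me3 at 100000 cells and 0 in the top 25% by H3K4me3. Of all genes 23.5% combine these. Both H3K4me3 values lay below both H3K27me3 values at 17 of the 26 (65.4%, against 17.0% of all genes), above at 4 (15.4%, against 62.0%) and overlapped at 5. The test for higher H3K27me3 was passed by 3 (Hoxb2, Hoxc11 and Hoxd10; 11.5%, against 2.16% of all genes) and that for higher H3K4me3 by 0. Median levels were 1.02 and 1.88 RPKM of H3K4me3 at 100000 and 10000 cells, against 2.66 and 3.03 RPKM of H3K27me3. The median difference of the list was -0.91 log2 units, against 1.58 over all genes, and with 1 library left out it lay between -0.97 and -0.41. Without chromosomes 1, 8 and 11 the median difference was -0.62 over 18 HOX genes, against 1.52 over all genes. RNA of the 26 did not exceed 0.21 RPKM.

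The HOX genes differed from each other in both marks, from 0.36 to 3.31 RPKM of H3K4me3 at 100000 cells and from 0.78 to 4.23 RPKM of H3K27me3. The Hoxb genes lie on chromosome 11, and both marks were higher on chromosomes 1, 8 and 11 together, as given below. Hoxb8 had 1.57 and 0.00 RPKM of H3K4me3, against 4.23 and 5.52 RPKM of H3K27me3, the highest of the list, without passing the test (adjusted p = 0.121 in limma). Hoxb2 had 0.78 and 0.00 RPKM of H3K4me3, against 3.62 and 3.97 RPKM of H3K27me3 (-1.84 ± 0.80 log2 units, SE, limma, adjusted p = 0.0467). Hoxc11 had 0.36 and 0.00 RPKM of H3K4me3, against 2.8 and 2.85 RPKM of H3K27me3. Hoxd8 and Hoxd1 were at the other end: Hoxd8 had 3.31 and 14.06 RPKM of H3K4me3, against 1.90 and 1.54 RPKM of H3K27me3, and Hoxd1 had 3.19 and 11.25 RPKM, against 1.53 and 2.15 RPKM.

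Developmental transcription factors outside the HOX clusters had near-equal RPKM of both marks, with H3K4me3 below and H3K27me3 above the medians of all genes. All 35 were in the top 25% by H3K27me3 at 100000 cells and 0 in that by H3K4me3, where 23.5% of all genes combine these. The marks overlapped at 15 of them, H3K4me3 was above at 9 (25.7%, against 62.0% of all genes) and below at 11 (31.4%, against 17.0%). The test called 2 for H3K27me3 (Tcfap2b and Tbx5; 5.71%, against 2.16%) and 0 for H3K4me3. Their median levels were 1.51 and 3.75 RPKM of H3K4me3, against 2.09 and 2.33 RPKM of H3K27me3. Over all genes the medians were 1.99 and 6.56 RPKM of H3K4me3, against 0.30 and 0.31 RPKM of H3K27me3. The median difference was -0.27 log2 units at 100000 cells and 0.39 at 10000 cells, so the direction turned with cell number. The fitted median of 0.08 was negative without H3K4me3 of 10000 cells (-0.31), with quantile normalization (-2.20) and with the libraries centred (-1.76), and it was 0.45 without H3K4me3 of 100000 cells.

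Tcfap2b, the AP-2 beta factor of neural crest and kidney, had the largest difference among named genes called for H3K27me3, with 1 start site per gene. Its H3K4me3 was 0.36 and 0.00 RPKM, against 4.32 and 5.19 RPKM of H3K27me3 (-2.30 ± 0.83 log2 units, SE, limma, adjusted p = 0.0172), and the libraries outside the fit had 0.54 RPKM of H3K4me3 and 2.79 RPKM of H3K27me3. Tcfap2d, of the same family, had 0.54 and 0.00 RPKM of H3K4me3, against 3.53 and 3.97 RPKM of H3K27me3. Sp9, a zinc finger factor of limb and forebrain whose promoter is printed above, had 0.72 and 0.00 RPKM of H3K4me3, against 3.55 and 3.45 RPKM of H3K27me3. Lhx5, a LIM-homeobox factor, had 1.20 and 0.00 RPKM of H3K4me3, against 2.83 and 3.24 RPKM of H3K27me3, and was not called (adjusted p = 0.106 in limma). The libraries outside the fit reversed the order at Lhx5, with 3.77 RPKM of H3K4me3 and 1.55 RPKM of H3K27me3. Foxc1 and Twist1, factors of mesenchyme, had both H3K4me3 values above both H3K27me3 values, without passing the test, and differences small enough to turn negative when centred: Foxc1 had 3.19 and 10.31 RPKM, against 1.65 and 1.84 RPKM of H3K27me3, and Twist1 had 3.01 and 7.50 RPKM, against 0.98 and 0.86 RPKM.

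Other genes with large differences towards H3K27me3 were Duoxa2, a maturation factor of a dual oxidase, Tcam1, a testicular adhesion molecule, and Pcdh10, a protocadherin. Duoxa2 had 0.78 and 0.00 RPKM of H3K4me3, against 3.50 and 3.40 RPKM of H3K27me3. Tcam1 had 0.36 and 0.00 RPKM of H3K4me3, against 2.68 and 2.66 RPKM of H3K27me3. Pcdh10 had 0.18 and 0.00 RPKM of H3K4me3, against 1.93 and 2.64 RPKM of H3K27me3 (-1.59 ± 0.50 log2 units, SE, limma, adjusted p = 0.0148). The libraries outside the fit reversed the order at Pcdh10, with 3.23 RPKM of H3K4me3 at 5000 cells and 0.66 RPKM of H3K27me3 at 1000 cells.

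Signalling ligands and their antagonists spanned both sides, and none of 20 was called in either direction. H3K4me3 was above H3K27me3 in both pairs at 10 (50.0%, against 62.0% of all genes) and below at 7 (35.0%, against 17.0%). Sfrp1, a secreted Wnt antagonist, had 7.59 and 37.50 RPKM of H3K4me3, against 2.01 and 2.26 RPKM of H3K27me3, and Wnt4 had 5.66 and 12.19 RPKM, against 1.32 and 1.24 RPKM. Fgf9 lay at the other end with 0.84 and 0.00 RPKM of H3K4me3, against 3.37 and 3.67 RPKM of H3K27me3 (adjusted p = 0.0535 in limma), and Wnt11 had 1.14 and 0.00 RPKM, against 1.96 and 1.96 RPKM.

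Imprinted genes, expressed from 1 parental allele, had a median difference close to that of all genes in the main fit, at 1.44 log2 units, against 1.58. They lay further below all genes with quantile normalization (-0.99, against -0.21) and with a mean of at least 0.5 RPKM (1.62, against 2.53). At 100000 cells 11 of 24 were in the top 25% by H3K27me3 alone (45.8%, against 23.5% of all genes). In the top 25% by H3K4me3 alone were 4 (16.7%, against 23.8%). Of 24 imprinted genes 8 were called for H3K4me3 (33.3%, against 44.6% of all genes) and 0 for H3K27me3 (against 2.16%). Zrsr1 had 6.50 and 76.88 RPKM of H3K4me3, against 0.20 and 0.04 RPKM of H3K27me3, and Ube3a had 4.40 and 52.50 RPKM, against 0.06 and 0.16 RPKM. Dlk1, a paternally expressed ligand of the Notch family, had 1.14 and 0.00 RPKM of H3K4me3, against 2.05 and 2.17 RPKM of H3K27me3. In the libraries outside the fit the order at Dlk1 was reversed, at 1.08 RPKM of H3K4me3 and 0.63 RPKM of H3K27me3. The alleles were not separated in these data.

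Of 20 germline genes 11 had both H3K4me3 values below both H3K27me3 values (55.0%, against 17.0% of all genes), and 2 were called in each direction (10% each, against 44.6% for H3K4me3 and 2.16% for H3K27me3). H3K4me3 had no read at 10000 cells at 12 of the 20, and a count of 0 there allows 2.81 RPKM. The median difference was -0.13 log2 units at 100000 cells, and in the libraries outside the fit it was 0.10. Dnmt3l, a cofactor of DNA methylation in germ cells that stem cells also express, had 1.14 and 8.44 RPKM of H3K4me3, against 0.25 and 0.12 RPKM of H3K27me3, with 24.71 RPKM of RNA. Tex14, of the germ cell bridges, had 3.13 and 26.25 RPKM of H3K4me3, against 0.09 and 0.14 RPKM of H3K27me3. The 2 called for H3K27me3 were Tex15 and Brdt, and Mei1, a gene of meiosis, missed the threshold with 0.96 and 0.00 RPKM of H3K4me3, against 2.71 and 3.33 RPKM of H3K27me3 (adjusted p = 0.0715 in limma).

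Genes of other tissues and receptor and channel genes of neurons differed in both marks. Of 21 tissue-specific genes 0 were called in either direction, 12 had both H3K4me3 values below both H3K27me3 values (57.1%, against 17.0% of all genes), and 17 had no H3K4me3 read at 10000 cells. Their median difference was -0.41 log2 units in the fit and -0.07 in the libraries outside it. Mpo, the peroxidase of neutrophils, had 0.78 and 0.00 RPKM of H3K4me3, against 1.28 and 1.52 RPKM of H3K27me3. Of 17 neurotransmitter receptors and channels, 14 were in the top 25% by H3K27me3 alone (82.4%, against 23.5% of all genes). Both H3K4me3 values lay above both H3K27me3 values at 8 (47.1%, against 62.0% of all genes) and below at 6 (35.3%, against 17.0%), with a median difference of 0.10 log2 units in the fit and 0.60 in the libraries outside it. Among the 17 genes 3 serotonin receptors were called for H3K27me3 (Htr1a, Htr2a and Htr2c; 17.6%, against 2.16% of all genes) and 0 for H3K4me3. Htr1a had 0.30 and 0.00 RPKM of H3K4me3, against 1.95 and 2.40 RPKM of H3K27me3, but H3K4me3 at 5000 cells was 3.23 RPKM, against 1.02 RPKM of H3K27me3 at 1000 cells. Htr2c had 0.12 and 0.00 RPKM, against 0.99 and 0.91 RPKM, and 0.54 against 0.48 RPKM in the libraries outside the fit. Of 14 fibroblast markers, 7 had both H3K4me3 values above both H3K27me3 values (50.0%, against 62.0% of all genes) and 2 below (14.3%, against 17.0%), with a median difference of 0.65 log2 units. Postn, a matrix protein, was the 1 called for H3K27me3 (7.14%, against 2.16% of all genes), and 0 were called for H3K4me3. Postn had 0.06 and 0.00 RPKM of H3K4me3, against 0.78 and 0.78 RPKM of H3K27me3.

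Olfactory receptor genes, the odorant sensors of the nose, made up 37 of the 233 start sites called for H3K27me3. That is 37 of 534 family members tested (6.93%, against 2.16% of all genes), and 0 were called for H3K4me3. Both H3K4me3 values lay below both H3K27me3 values at 305 of them (57.1%, against 17.0% of all genes). Their levels were low, with medians of 0.24 and 0.00 RPKM of H3K4me3, against 0.41 and 0.35 RPKM of H3K27me3, and 446 of 535 had no H3K4me3 read at 10000 cells. Median H3K27me3 over all genes was 0.30 RPKM at 100000 cells, and over the HOX genes 2.66 RPKM. Olfr466 had 0.18 and 0.00 RPKM of H3K4me3, against 1.60 and 1.59 RPKM of H3K27me3 (-1.26 ± 0.42 log2 units, SE, limma, adjusted p = 0.0148), and Olfr63 had 0.24 and 0.00 RPKM, against 1.85 and 1.15 RPKM. Some of these genes are close copies, and how the authors counted reads that match several of them is not given in the sources used here.

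**Figure D4:**
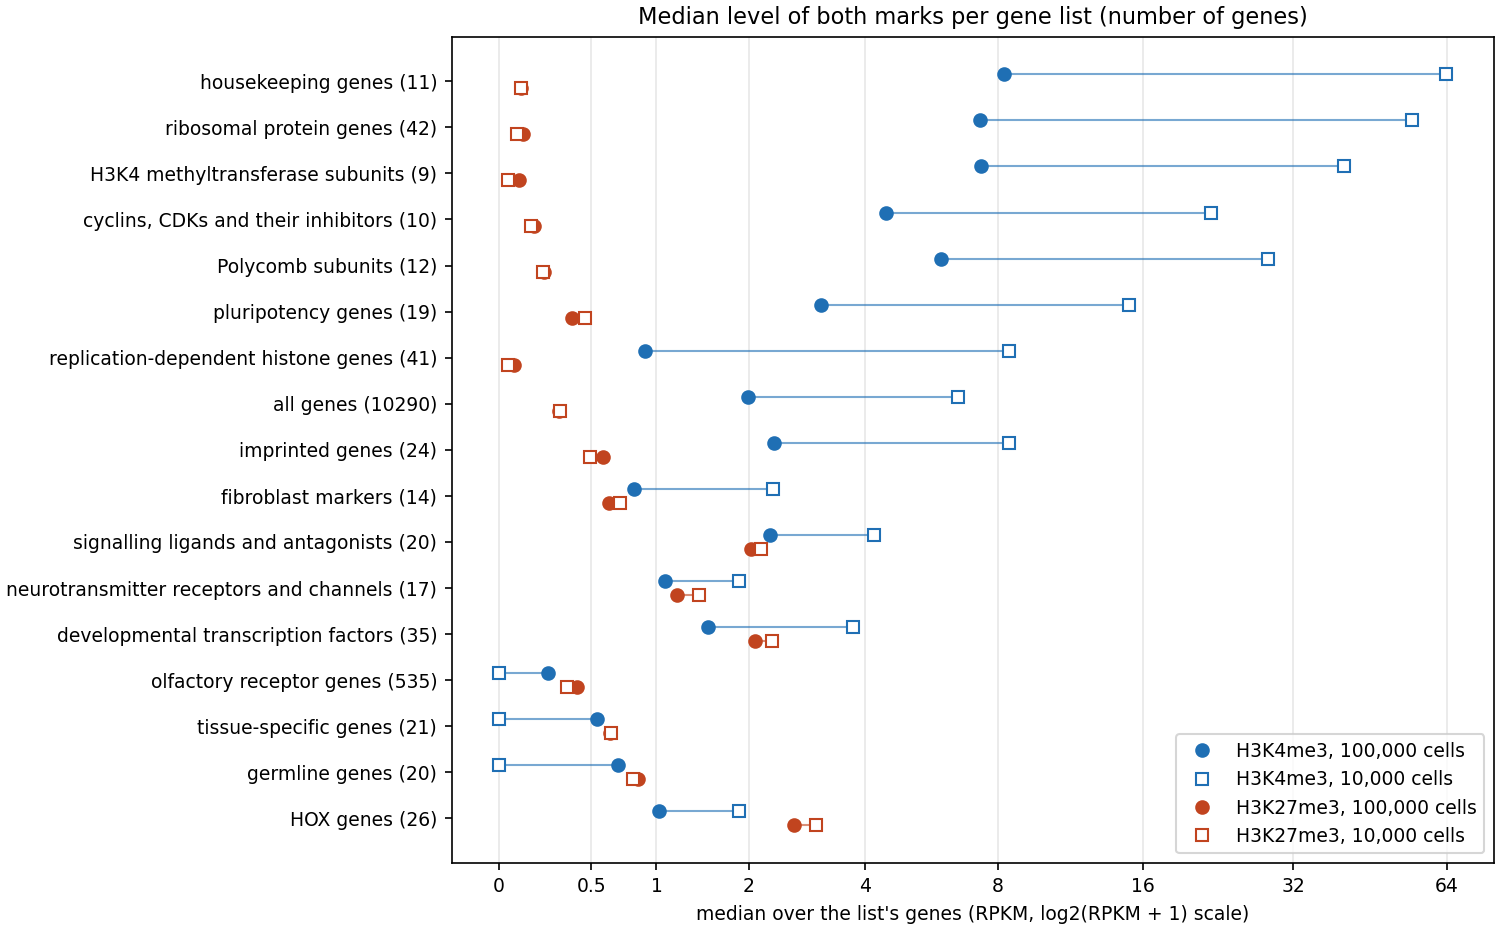
Median H3K4me3 (blue, upper of each pair) and H3K27me3 (red, lower) over the genes of each list, in RPKM on a log2(RPKM + 1) scale, with filled circles for 100000 cells and open squares for 10000 cells; numbers in brackets count the genes. Lists run from housekeeping genes, at 8.25 RPKM of H3K4me3 and 0.10 RPKM of H3K27me3 at 100000 cells, to HOX genes, at 1.02 and 2.66 RPKM.

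Start sites high in both marks were few. At 100000 cells the top 25% began at 4.70 RPKM for H3K4me3 and at 0.62 RPKM for H3K27me3. It was reached for both by 250 of 11325 start sites (2.21%), where the product of the 2 shares is 6.31%. At 10000 cells 159 start sites (1.40%) were in both, and 106 start sites stood in both of these lists, which is 42.4% of the list at 100000 cells and 66.7% of that at 10000 cells. The 250 start sites had median levels of 5.93 and 24.4 RPKM of H3K4me3 at 100000 and 10000 cells, against 1.00 and 1.14 RPKM of H3K27me3. Their median RNA was 2.59 RPKM, against 9.86 RPKM at the 2604 start sites high in H3K4me3 alone and 0.15 RPKM at the 2587 high in H3K27me3 alone.

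No HOX gene was among the 8 named genes highest in both marks. Those 8 included Cbx2, Galnt10, a transferase that starts mucin-type O-glycans, and Mt2, a metallothionein. Galnt10, whose promoter is printed above, had 8.43 and 37.50 RPKM of H3K4me3, against 1.29 and 1.27 RPKM of H3K27me3 (3.06 ± 1.51 log2 units, SE, limma, adjusted p = 0.0835). Mt2 had 7.47 and 59.06 RPKM of H3K4me3, against 1.23 and 1.22 RPKM of H3K27me3, with 62.8 RPKM of RNA. All 8 lay on chromosomes 8 and 11.

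Chromosomes 1, 8 and 11 held 46.4% of the 250 start sites but 18.0% of all. Both marks were higher there: medians were 2.95 RPKM of H3K4me3 and 0.42 RPKM of H3K27me3 at 100000 cells on these chromosomes, against 1.63 and 0.27 RPKM on the others. Of the genes named above for large differences, Foxk2, Kdm5b, Tcfap2b, Tcfap2d, Hoxb2 and Tcam1 also lie on these chromosomes. Ep300, Sp9, Duoxa2, Hoxc11 and Pcdh10 do not. With thresholds set anew on the other chromosomes alone, 212 of 9288 start sites (2.28%) were in the top 25% of both. On chromosomes 1, 8 and 11 alone it was 28 of 2037 (1.37%). Outside them the highest in both, chosen after the values were seen, were Fgf4, Hs6st3, Tcf15 and Tcfap2c. Hs6st3, a heparan sulfate sulfotransferase, had 7.83 and 36.56 RPKM of H3K4me3, against 1.57 and 1.66 RPKM of H3K27me3. Tcf15, a basic helix-loop-helix factor of somites, had 7.29 and 38.44 RPKM, against 1.22 and 0.95 RPKM.

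**Figure D5:**
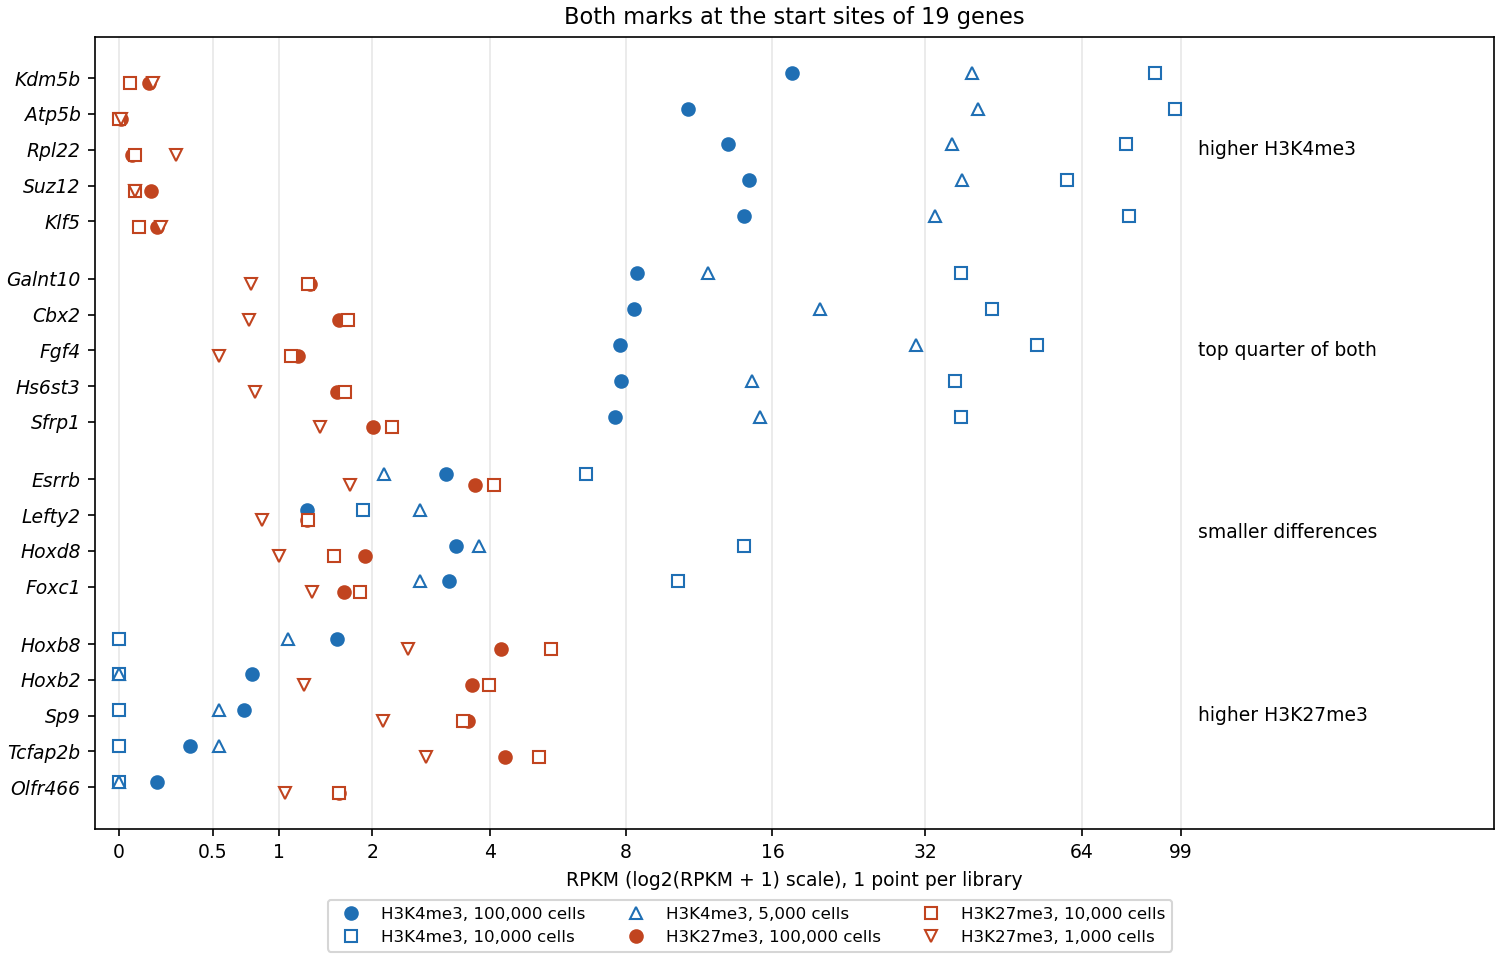
H3K4me3 (blue, upper of each pair) and H3K27me3 (red, lower) at the start sites of 19 genes in RPKM on a log2(RPKM + 1) scale, 1 point per library, including H3K4me3 at 5000 cells and H3K27me3 at 1000 cells, which the fit did not use. From Kdm5b (17.53 and 88.13 RPKM of H3K4me3) at the top to Olfr466 (0.18 and 0.00 RPKM) at the bottom the order of the marks turns round, and at Esrrb and Lefty2 the points of the marks lie among each other.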

How the data were processed

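H3K4me3, H3K27me3 and RNA were read from the authors' deposited RPKM values, 1 column per library with no pooling, on the mm9 build and with BWA named in the submitters' processing notes; no source used here names the counting tool or versions. Per the labels, H3K4me3 used an Abcam antibody and H3K27me3 a Diagenode antibody. The windows also differ, at 1 kb for H3K4me3 and 2 kb for H3K27me3, so differences between marks depend on both scales. Of the H3K4me3 file, 2 columns of another series were not used.

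Start sites were joined to the H3K4me3 window that held them, choosing the nearest centre, or else to the nearest window within 500 bp (22445 inside, 169 near). H3K27me3 was averaged at 296 start sites with more than 1 value. Only plus-strand start sites entered the fit, a choice made after the strand fault was seen in the files. Log2(RPKM + 1) values above 0 in at least 1 of 4 libraries were compared with limma 3.58.1 in R 4.3.3 (trend and robust moderation, two-sided, Benjamini-Hochberg threshold 0.05). The code was also run on simulated data in which both libraries of a mark had the same expected level. The H3K4me3 libraries here differ in level, so that run cannot tell how reliable the calls are. A difference on this scale understates that of low values. Other steps used Python 3.11.15, numpy 2.4.6, pandas 2.3.3 and scipy 1.17.1.

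Read depth was taken from the smallest step between values, for H3K27me3 in the 2 kb bins. Only the lower values were checked, and all of them were whole multiples of the step within the rounding of the values. Gene lists hold 1 start site per gene, the one with the highest mean. From each list the 2 highest and 2 lowest differences could be named, and over all genes the 8 largest called differences in each direction and the 8 highest in both marks. Predicted or unnamed gene models were passed over, so start sites of such models may rank higher. Members and lists were chosen with earlier results of these data known. CpG content by class of start site is not given, since 79.2% of genes had a RefSeq promoter entry, too few for that check.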

Additional observations from a re-analysis of the deposited data

Results flagged for a closer look

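Of the 11194 start sites tested, 746 had H3K4me3 below H3K27me3 at 100000 cells and above at 10000 cells, and 1167 the reverse, of which 1117 had no H3K4me3 read at 10000 cells. Among the genes and lists described above, Esrrb and the developmental transcription factors are given here because their sign differed between the cell numbers. With 1 library for each mark and cell number, the difference between cell numbers was not tested. At Esrrb H3K4me3 minus H3K27me3 was higher at 10000 cells than at 100000 cells by 0.754 log2 units, and over the developmental transcription factors the median difference was higher by 0.663 log2 units.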

How the results depend on the processing

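With each library centred on its median, 2486 start sites were called for H3K27me3 and 5675 had both H3K4me3 values below both H3K27me3 values, and with quantile normalization 4847 and 5422. H3K4me3 then made up 59.7% and 46.4% of the calls, against 95.5% as reported. A mean of at least 0.5 RPKM left 139 called for H3K27me3 and 659 below, and 3 against 3 libraries gave 619 and 984. With estimated library weights 1 was called for H3K27me3. With cell number as a replicate block 0 start sites were called for H3K4me3 and 0 for H3K27me3 (4400 and 89 at an unadjusted p under 0.05 in limma), and with plain moderation 0 and 0 (5002 and 86). The cell number names no shared animal or culture, and the 100000 minus 10000 cell differences of both marks had a Pearson correlation of -0.14 across start sites. Leaving out 1 library gave 0 to 7552 calls for H3K4me3 and 0 to 2740 for H3K27me3, with 6973 to 7842 start sites above and 2072 to 3212 below. Without either H3K27me3 library, 0 start sites for H3K4me3 and 2 or fewer for H3K27me3 had an unadjusted p under 0.05.

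Alternatives chosen after seeing the data were both strands as deposited, with 10249 and 397 calls and 14086 above and 3578 below, and minus-strand start sites in 2 kb bins, with 354 and 22 calls and 501 above and 149 below. The share in both was 0.132% for the top 10%, 17.3% for the top 50% and 1.40% at 10000 cells. The correlation of the marks stayed between -0.232 and -0.312 at 100000 cells and between -0.377 and -0.412 at 10000 cells under every alternative run.

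Centring lowered every difference by 1.84 log2 units, so each smaller positive difference turned negative by construction, which says nothing of the gene: Hoxd1 (-0.49), Hoxd8 (-0.27), Foxc1 (-0.51), Twist1 (-0.23), Lefty2 (-1.66), Esrrb (-1.64) and Bmi1 (-0.56). With quantile normalization 12 named genes had a negative difference: Hoxd1 (-1.37), Hoxd8 (-1.23), Foxc1 (-1.35), Twist1 (-0.93), Wnt4 (-0.75), Sfrp1 (-0.57), Lefty2 (-1.90), Esrrb (-2.28), Bmi1 (-1.01), Cbx2 (-0.18), Galnt10 (-0.037) and Hs6st3 (-0.30). Leaving out 1 library gave -0.003 to 0.347 at Lefty2 and -0.24 to 0.633 at Esrrb, the lowest without H3K4me3 of 10000 cells. The causes of the changes other than with centring were not tested. At 10000 cells depth limits H3K4me3, where 1 read is worth 0.938 RPKM.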
